A study of Mus musculus with 10 samples.

Results

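The genes of the pancreatic acinar cell, 26 that encode digestive enzymes and other secretory granule proteins and 4 that encode transcription factors of acinar identity, were followed in mouse islet libraries. The 30 genes were taken by symbol from a table of 24475 genes, and all 30 were found. The libraries came from pancreatic islets of C57BL/6 mice: 5 (antibody libraries 1 to 5) from mice given REGN1193, a blocking antibody against the glucagon receptor (GCGR), and 5 (isotype libraries 6 to 10) from mice given an isotype control antibody. No other genotype or treatment is named in the labels, and dose, duration, age, sex and batch are details that the sources used here do not give. Islets were purified on a Histopaque density gradient, and the labels give no count of exocrine cells in the preparations. Levels are given in RPKM, reads scaled by transcript length and by library size, the unit of the authors' table.

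Acinar cells are the exocrine cells that surround the islets. They store proteases as inactive zymogens, together with lipases, amylase and ribonuclease, in zymogen granules that empty into the pancreatic ducts after a meal. Their genes are held on by PTF1, a complex of the basic helix-loop-helix protein Ptf1a, a common E protein and Rbpjl, which binds a paired E-box and TTTCCC motif. The nuclear receptor Nr5a2 acts beside PTF1 on enzyme genes, while Bhlha15, also known as Mist1, organises the secretory machinery and is found in other secretory cells as well. The files hold bulk RNA, in which fewer acinar cells and less acinar RNA per cell cannot be told apart.

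The estimated depth was 14.6 to 18 megareads in the antibody libraries and 12.3 to 14.7 megareads in the isotype libraries. All 30 members averaged 0.5 RPKM or more and entered the comparison of 13450 genes. The labels do not say that the libraries came from separate animals, so a p-value here measures the spread between libraries, which may be technical. The islet label was met by the alpha and beta cell genes, with Gcg, proglucagon, at 12299.9 ± 3618 RPKM (SD, n = 5) in the isotype libraries and 63254 ± 11470.1 RPKM (SD, n = 5) in the antibody libraries.

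Secreted acinar transcripts were present in every library and varied more between libraries than between groups. Their 26 genes took 0.774, 0.741, 0.674, 1.47 and 2.57% of the summed RPKM in antibody libraries 1 to 5 and 1.93, 1.95, 2.70, 0.548 and 2.24% in isotype libraries 6 to 10. The group means were 1.25% ± 0.809 and 1.87% ± 0.803 (SD, n = 5 each), so the difference of -0.627 percentage points was smaller than either SD. It was -0.959 without antibody library 5 and -0.958 without isotype library 9, and ran from -0.959 to -0.421 with 1 library left out. Isotype library 9 held the smallest share of all 10, below the antibody libraries, and antibody library 5 the second largest. With the insulin genes Ins1 and Ins2 and Gcg removed from the sum, the shares were 2.07% ± 1.19 and 3.49% ± 1.52 (SD, n = 5 each). That difference of -1.43 percentage points was larger than the antibody SD and smaller than the isotype SD.

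**Figure D1:**
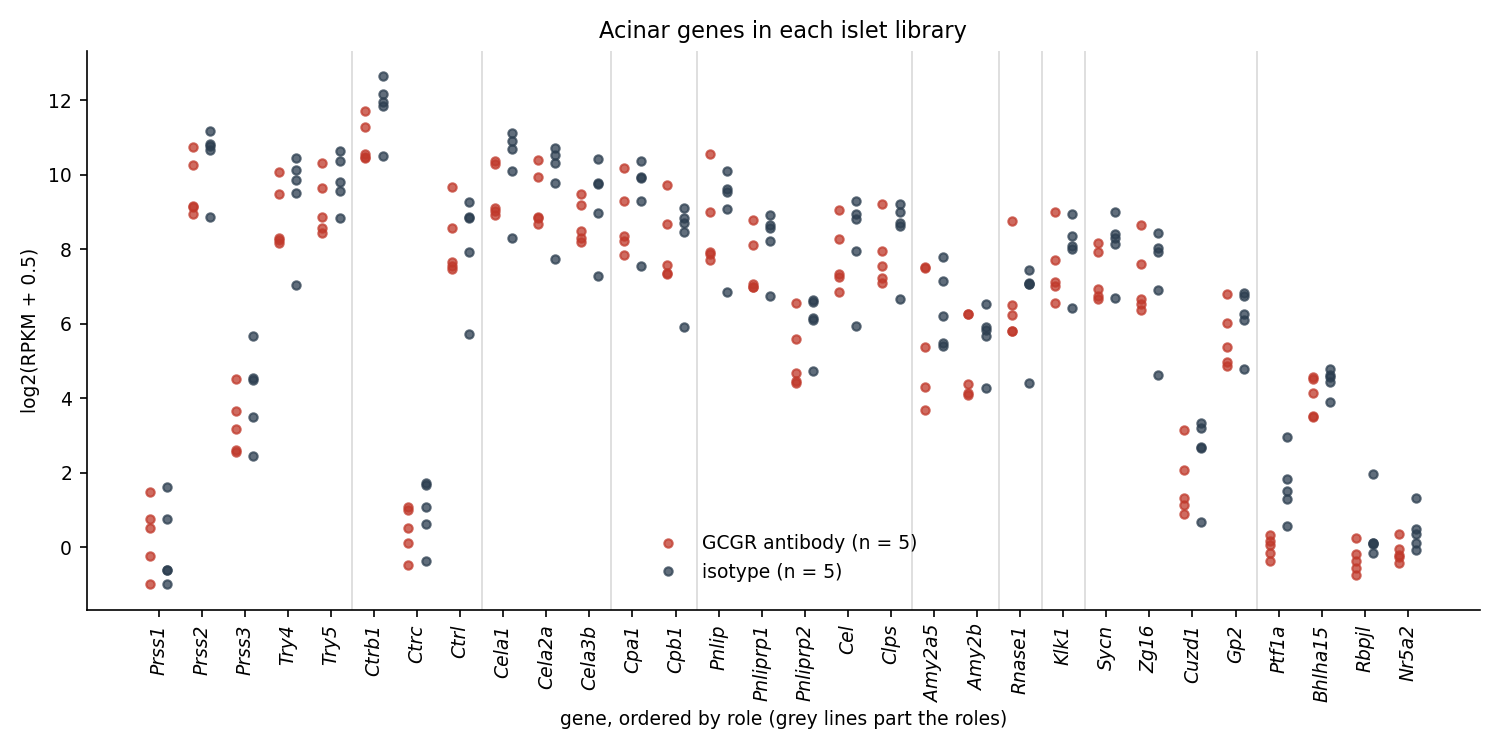
Levels of the 30 acinar genes as log2(RPKM + 0.5) on the vertical axis, with genes ordered by role on the horizontal axis and 1 point per library (5 antibody, 5 isotype). Most secreted protein genes have a single low isotype point, which is library 9, while the points of Ptf1a do not overlap between the groups.

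Differences between the groups were tested gene by gene with limma on log2(RPKM + 0.5), with Benjamini-Hochberg adjustment over all 13450 genes and a threshold of 0.05. No acinar gene passed in either direction (0 of 30), where 0.409% of all tested genes did, 53 higher (0.394%) and 2 lower (0.0149%) with the antibody. At an unadjusted limma p under 0.05, 3 of the 30 were lower (Ctrb1, Ptf1a and Nr5a2) and 0 were higher, beside 4.18% of all genes lower and 2.84% higher. That background turns with the scaling, from 562 genes lower and 382 higher to 301 lower and 584 higher after median centring. The members' own count of 3 was 1 after median centring, beside 2.24% of all genes, and 15 with array weights, which weight libraries by their spread, beside 9.12%. The log2 fold change, antibody over isotype, was below 0 in 27 of the 30, with a median of -0.60. Over all tested genes 66.5% of folds lay below 0, with a median of -0.066. After median centring these were 25 of the 30 members and 46.8% of all genes. The 30 genes share their libraries and the secreted ones vary together, so the 27 are not separate observations.

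**Figure D2:**
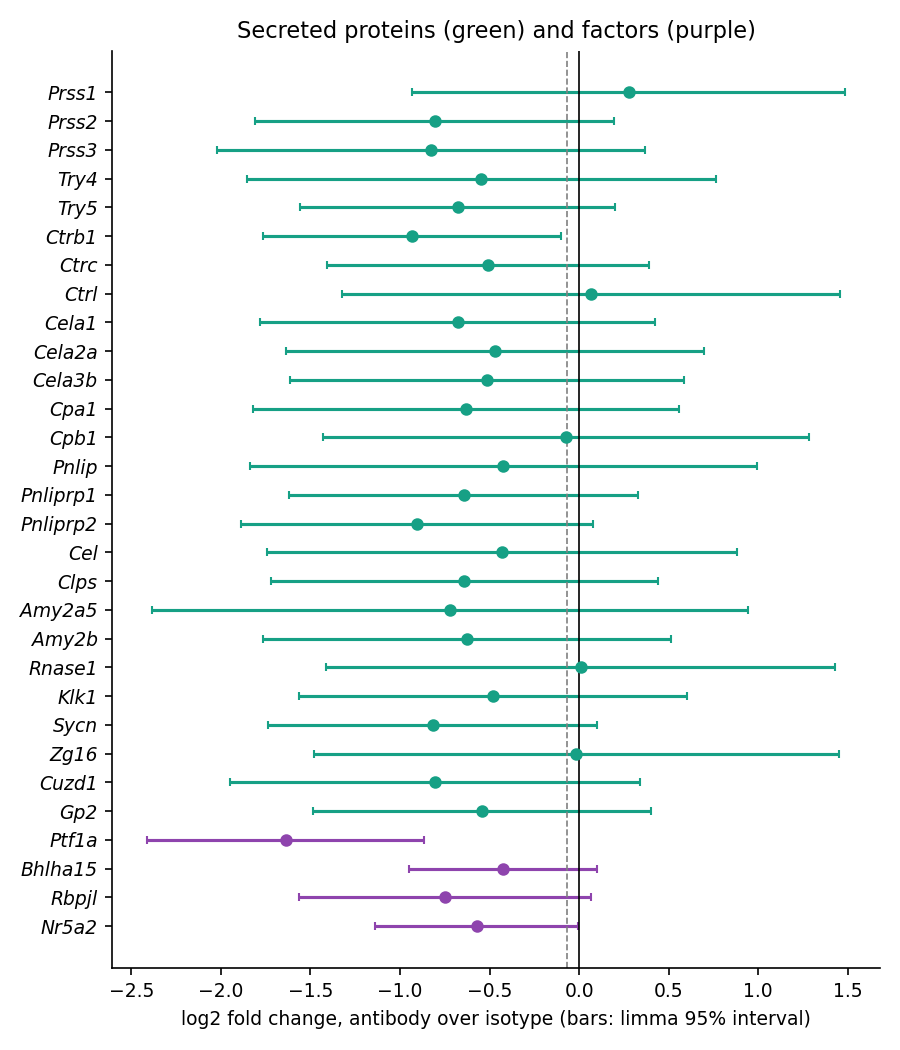
Log2 fold change of antibody over isotype (horizontal axis) for each gene, with limma's 95% interval, in green for secreted proteins and purple for transcription factors. The dashed line is the median of all tested genes at -0.066, and only the intervals of Ctrb1, Ptf1a and Nr5a2 end below 0.

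Trypsinogens are the zymogens whose active form, trypsin, activates the other pancreatic proteases. Prss2 (Entrez 22072, chr6:41521776-41525079 in GRCm38.p6) stood at 578, 558, 497, 1236 and 1714 RPKM in antibody libraries 1 to 5 and at 1766, 1629, 2311, 466 and 1803 RPKM in isotype libraries 6 to 10. Antibody libraries 1 to 3 were low and libraries 4 and 5 high, while isotype library 9 lay below every antibody library, so the groups overlapped. The means were 917 ± 538 and 1595 ± 682 RPKM (SD, n = 5 each; limma log2 fold change -0.81 ± 0.46 SE, adjusted p = 0.776). Try4 ran from 289.9 to 1077 RPKM in antibody and 132 to 1388 RPKM in isotype libraries, and Try5 from 346 to 1276 RPKM in antibody and 459.8 to 1588 RPKM in isotype libraries. Prss3 was far less abundant, at 5.34 to 22.6 RPKM in antibody and 4.96 to 50.9 RPKM in isotype libraries. Prss1 ran from 0 to 2.31 RPKM in antibody and 0 to 2.55 RPKM in isotype libraries, resting on at most about 33.4 reads in any library, and was listed at 0 in antibody library 3 and isotype library 9. These genes are near-copies: 66.1% of the 50-base windows of the Prss3 transcript, 65.6% of Try4, 54.9% of Prss1 and 53.9% of Try5 also occur in transcripts of other genes, against 7.8% of Prss2. How reads were divided among them is not given, so their single values are uncertain.

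Chymotrypsinogens are proteases of the same family, and among them Ctrb1 had the highest mean level of the 30 members. Ctrb1, chymotrypsinogen B (Entrez 66473, chr8:111686510-111691010), stood at 1419.9, 1512, 1390.1, 2479.9 and 3346 RPKM in antibody libraries 1 to 5 and at 3655, 3948, 6428, 1461 and 4609.5 RPKM in isotype libraries 6 to 10. Isotype libraries other than 9 all lay above every antibody library. The means of 2029 ± 864 and 4020.2 ± 1791 RPKM (SD, n = 5 each; limma log2 fold change -0.93 ± 0.38 SE, adjusted p = 0.649) had a two-sided exact permutation p of 0.0556. Ctrl, a chymotrypsin-like protease, was at 178, 204, 187, 379.9 and 819.9 RPKM in antibody libraries 1 to 5 and 459.7, 465, 615, 52.4 and 242 RPKM in isotype libraries 6 to 10. Antibody library 5 held its highest value and isotype libraries 9 and 10 were both low, for a log2 fold change of 0.066 (SE 0.64). Ctrc, chymotrypsin C, which regulates trypsinogen activation, was near the filter at 0.212 to 1.61 RPKM in antibody and 0.281 to 2.82 RPKM in isotype libraries, about 3.0 to 39.4 reads per library, and an antisense gene, Ctrcos, overlaps it.

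Proelastases and procarboxypeptidases followed the same libraries. Cela1, a proelastase, was at 524, 548, 489, 1249 and 1335 RPKM in antibody libraries 1 to 5 and 1906, 1663, 2229.8, 318 and 1094 RPKM in isotype libraries 6 to 10 (limma log2 fold change -0.68 ± 0.51 SE, adjusted p = 0.852). Again antibody libraries 4 and 5 were the high ones of their group, and isotype library 9 was the lowest of all 10. The log2 fold changes of the related Cela2a and Cela3b were -0.47 (SE 0.53) and -0.51 (SE 0.50). Cpa1, which removes aliphatic and aromatic residues from the carboxyl end of peptides, ran from 232 to 1161 RPKM in antibody and 187 to 1331 RPKM in isotype libraries, a log2 fold change of -0.63 (SE 0.55). Cpb1, which removes basic residues, ran from 162 to 851 RPKM in antibody and 59.6 to 552 RPKM in isotype libraries, with a log2 fold change of only -0.073 (SE 0.62). Of the Cela3b windows 33.2% also occur in Cela3a, and 25.6% of those of Cela2a in a transcript assigned to Ctrc.

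Lipid-digesting enzymes include Pnlip, pancreatic triglyceride lipase, its cofactor colipase Clps, and Cel, which splits cholesterol esters in the presence of bile salts. Pnlip stood at 209, 235, 245, 515 and 1503 RPKM in antibody libraries 1 to 5 and at 788, 745, 1091, 116 and 544 RPKM in isotype libraries 6 to 10. Antibody library 5 exceeded every isotype library, and isotype library 9 lay below every antibody library, so that the 95% interval of the log2 fold change ran from -1.84 to 0.99 around -0.42. All 5 genes of the group had negative folds, from -0.42 for Pnlip to -0.90 for Pnliprp2, a relative of Pnlip. Pnliprp2 ran from 20.6 to 93.6 RPKM in antibody and 26.3 to 99.9 RPKM in isotype libraries (limma log2 fold change -0.90 ± 0.45 SE, adjusted p = 0.751). Clps ran from 136 to 591 RPKM in antibody and 102 to 598 RPKM in isotype libraries, Cel from 115 to 529.9 RPKM in antibody and 61.1 to 627 RPKM in isotype libraries and Pnliprp1, a further relative of Pnlip, from 127 to 439 RPKM in antibody and 107 to 485 RPKM in isotype libraries.

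Amylases split starch. Amy2a5 varied most of the 26 secreted genes, with an SD of 1.43 in log2 level over the 10 libraries, and was at 41.2, 19.3, 12.4, 181 and 183 RPKM in antibody libraries 1 to 5 and 221, 43.9, 73.1, 41.9 and 141 RPKM in isotype libraries 6 to 10. Its order of libraries differed from that of the proteases, with high values in antibody libraries 4 and 5 and isotype library 6. More than 1 copy shares its sequence: 57.2% of its windows occur in Amy2a2, Amy2a3 or Amy2a4. These copies, outside the genes followed here, were listed with identical and higher values. They ran from 514 to 2596 RPKM in antibody and 376 to 2443 RPKM in isotype libraries. Unlike Amy2a5 they followed the other enzymes, with a correlation of 0.994 between their log2 level and the mean of the 26 secreted genes. How reads were divided among the copies is not given. Amy2b ran from 16.4 to 76.2 RPKM in antibody and 19.1 to 91.9 RPKM in isotype libraries, with a log2 fold change of -0.62 (SE 0.52) beside -0.72 (SE 0.76) for Amy2a5.

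Rnase1, the secreted ribonuclease, was at 55.4, 55.6, 74.7, 91.1 and 436 RPKM in antibody libraries 1 to 5 and 137, 135, 173, 20.7 and 133 RPKM in isotype libraries 6 to 10. Its value in antibody library 5 was the highest and that in isotype library 9 the lowest by a wide gap, and the log2 fold change was 0.0094 (SE 0.65). Klk1, tissue kallikrein, which releases kinins, ran from 94.4 to 517 RPKM in antibody and 86.0 to 494 RPKM in isotype libraries, a log2 fold change of -0.48 (SE 0.50), and shares 28.4% of its windows with other kallikrein genes.

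Among the zymogen granule proteins, Zg16, a lectin of the granule, was at 82.8, 101, 92.4, 195 and 401 RPKM in antibody libraries 1 to 5 and 243, 262, 345, 24.1 and 119 RPKM in isotype libraries 6 to 10, with a log2 fold change of -0.015 (SE 0.67). As with Ctrl, its isotype libraries 9 and 10 were the low ones of their group and antibody library 5 the highest of all. Sycn, syncollin, a protein of the granule membrane, ran from 101 to 289 RPKM in antibody and 102 to 515 RPKM in isotype libraries, a log2 fold change of -0.82 (SE 0.42). Gp2, the major glycoprotein of that membrane, ran from 28.5 to 111 RPKM in antibody and 26.9 to 113 RPKM in isotype libraries, a log2 fold change of -0.54 (SE 0.43). Cuzd1, a CUB and zona pellucida-like domain protein of the granule, ran from 1.36 to 8.30 RPKM in antibody and 1.10 to 9.63 RPKM in isotype libraries, a log2 fold change of -0.80 (SE 0.52).

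Of the 4 transcription factor genes, Ptf1a, Rbpjl and Nr5a2 had low levels. Ptf1a, the DNA-binding core of PTF1 (Entrez 19213, chr2:19445663-19447501), stood at 0.392, 0.269, 0.751, 0.544 and 0.621 RPKM in antibody libraries 1 to 5 and at 0.992, 2.35, 1.97, 3.07 and 7.32 RPKM in isotype libraries 6 to 10. Every antibody library lay below every isotype library, and isotype library 10 was the highest. Ptf1a was the only one of the 30 members whose groups did not overlap, beside 0.84% of all tested genes with the antibody lower and 1.14% with it higher. The means were 0.515 ± 0.189 and 3.14 ± 2.45 RPKM (SD, n = 5 each), with a log2 fold change of -1.64 (SE 0.35). The exact permutation p was 0.00794, the smallest that 5 against 5 allows, and the limma adjusted p of 0.111 did not pass. About 6.0 to 140.1 reads per library lay behind these values.

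Ptf1a passed in 2 of the 21 alternative settings in which it was tested: with array weights (limma adjusted p = 0.0135, where 0.454% of all genes passed as lower), and without isotype library 6 (limma adjusted p = 0.0268, where 0.148% did). Over these 21 its adjusted p ranged from 0.0135 to 0.400 and its log2 fold change from -2.17 to -1.29. The 0.400 came from the exact permutation test per gene, in which the smallest possible p did not survive adjustment and 0 of 13450 genes passed. Without isotype library 10 the fold was -1.31 (limma adjusted p = 0.0797). The antisense gene Ptf1aos overlaps Ptf1a and was listed at 0 in all 10 libraries.

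Rbpjl, the acinar partner of Ptf1a in PTF1 (Entrez 19668, chr2:164403081-164415448), was at 0.183, 0.0942, 0.279, 0.681 and 0.383 RPKM in antibody libraries 1 to 5 and 0.402, 0.563, 0.580, 0.582 and 3.44 RPKM in isotype libraries 6 to 10. A single library, isotype 10, held the high value, while antibody library 4 exceeded the other isotype libraries (limma log2 fold change -0.75 ± 0.37 SE, adjusted p = 0.752). Matn4, an overlapping gene, ran from 0 to 0.624 RPKM, and reads of the pair cannot be told apart by strand. Nr5a2 (Entrez 26424, chr1:136842562-136960448) was at 0.358, 0.465, 0.329, 0.244 and 0.772 RPKM in antibody libraries 1 to 5 and 0.455, 0.909, 0.779, 0.591 and 2.01 RPKM in isotype libraries 6 to 10 (limma log2 fold change -0.57 ± 0.26 SE, adjusted p = 0.707). Antibody libraries 2 and 5 lay within the isotype range, and isotype library 10 was again the highest.

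Bhlha15 (Entrez 17341, chr5:144190286-144194441) was the abundant factor, at 22.2, 17.1, 23.1, 10.8 and 11.0 RPKM in antibody libraries 1 to 5 and 14.4, 23.5, 21.3, 24.1 and 27.3 RPKM in isotype libraries 6 to 10 (limma log2 fold change -0.42 ± 0.24 SE, adjusted p = 0.775). Its lowest values were in antibody libraries 4 and 5 and isotype library 6, where many enzyme transcripts were high. Per kilobase its level exceeded that of Ptf1a, Rbpjl and Nr5a2 in every library.

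**Figure D3:**
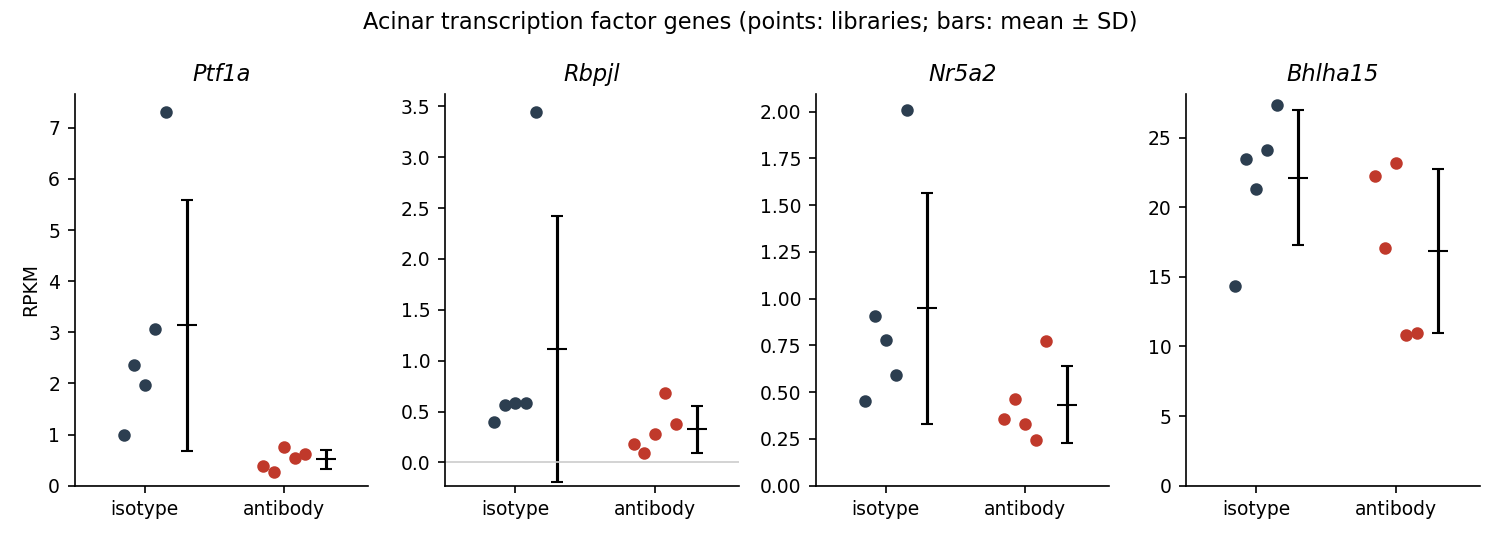
RPKM of the 4 acinar transcription factor genes (vertical axes, each panel with its own scale) in isotype and antibody libraries, with points for libraries and bars for mean ± SD (n = 5 each). Isotype library 10 is the highest point of each panel, and the groups of Ptf1a do not overlap.

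Enzymes and factors were then compared as sets, by the mean log2(RPKM + 0.5) over their genes in each library and with no test, since the members were chosen with results known. The secreted mean was 6.31, 6.30, 6.22, 7.40 and 8.16 in antibody libraries 1 to 5 and 7.85, 7.61, 8.12, 5.66 and 7.74 in isotype libraries 6 to 10, with group means of 6.88 ± 0.87 and 7.39 ± 0.99 (SD, n = 5 each). Isotype library 9 was the lowest of the 10 and antibody library 5 the highest. For the factors the mean was 0.89, 0.74, 1.06, 0.84 and 0.96 in the antibody libraries and 1.06, 1.67, 1.55, 1.67 and 2.77 in the isotype libraries, or 0.90 ± 0.12 against 1.75 ± 0.62 (SD, n = 5 each). Antibody library 3 and isotype library 6 met at 1.06, and the other isotype libraries lay above all antibody libraries.

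The difference between groups was -0.51 for the secreted mean and -0.85 for the factor mean. The former was -0.95 without isotype library 9, -0.84 without antibody library 5 and -0.33 without isotype library 8. The secreted minus the factor mean was 5.42, 5.56, 5.16, 6.56 and 7.20 in the antibody libraries and 6.78, 5.94, 6.56, 3.99 and 4.97 in the isotype libraries, a difference of 0.33 between means of 5.98 ± 0.86 and 5.65 ± 1.16 (SD, n = 5 each). That is smaller than the spread within either group, and it moved both ways with single libraries. It was -0.084 without isotype library 9, 0.026 without antibody library 5, 0.16 without isotype library 10 and 0.19 without antibody library 4. It was 0.62 without isotype library 6, 0.56 without isotype library 8 and 0.54 without antibody library 3, and -0.14 without both antibody library 5 and isotype library 10. With 0.1 RPKM added in place of 0.5 it was 0.66, and with 1 RPKM 0.15. Factor values near the added 0.5 RPKM are compressed on this scale: the median factor fold was -0.66, but -1.05 with 0.1 RPKM added and -0.47 with 1 RPKM added. Without isotype library 10 it was -0.35 over the 3 factors that then passed the filter, a set that lacks Rbpjl. The difference in the mean of all 4 factors was -0.59 without that library, and ran from -1.02 to -0.59 with 1 library left out. The median secreted fold was -0.59 with 0.5 RPKM added, -0.63 with 0.1 RPKM and -0.58 with 1 RPKM.

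**Figure D4:**
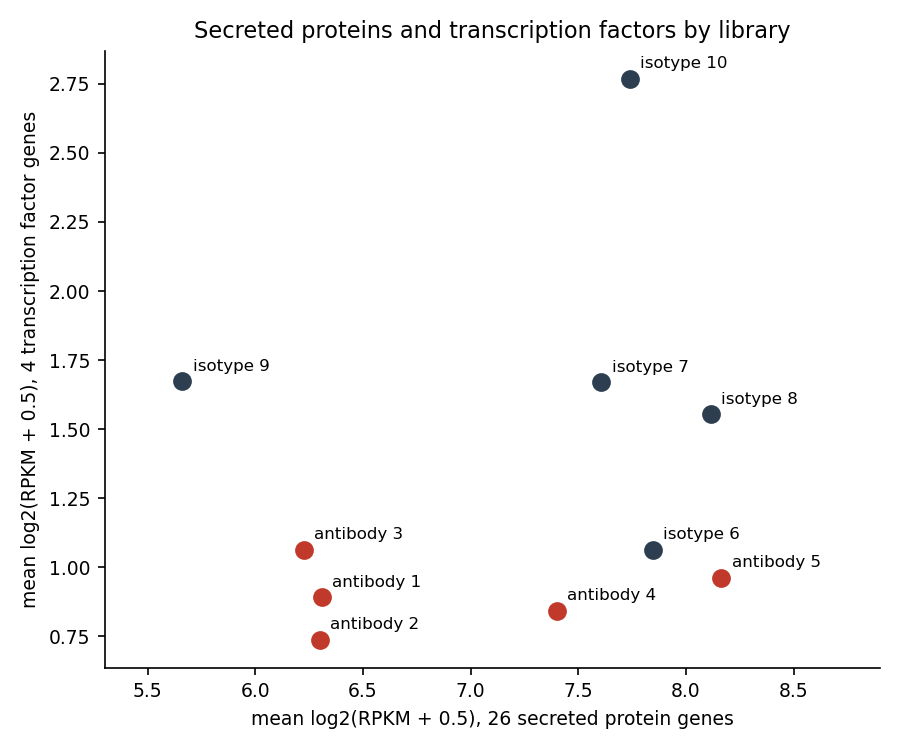
Mean log2(RPKM + 0.5) of the 26 secreted protein genes (horizontal axis) against that of the 4 transcription factor genes (vertical axis), 1 labelled point per library. Isotype library 9 has the lowest secreted mean at 5.66 with a factor mean of 1.67, and antibody library 5 the highest secreted mean at 8.16 with a factor mean of 0.96.

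The secreted group difference varied with single libraries. Of the 26 secreted genes, 18 were lowest in isotype library 9, 5 in antibody library 3, counting Prss1, which was at 0 in both, 2 in antibody library 2 and 1 in antibody library 1. The highest library was isotype 8 for 12 of them, isotype 10 for 6, antibody 5 for 6 and isotype 6 for 2. All 4 factors were highest in isotype library 10. Without isotype library 9 the median secreted log2 fold change was -0.99, and 19 of the 30 members were lower at an unadjusted limma p under 0.05, beside 2.62% of all genes. Without antibody library 5 the median was -0.90 and 9 members were lower at that threshold, beside 4.33% of all genes. No member passed after adjustment in either setting. With isotype library 8 left out, the median secreted fold was -0.38 and 1 member was lower at the unadjusted threshold, beside 4.48% of all genes. The count was also 1 without antibody library 1 (beside 4.56% of all genes), antibody library 2 (3.2%), isotype library 7 (3.59%) or isotype library 10 (3.07%). It was 2 without antibody library 3 (3.16%), and 4 without antibody library 4 (4.99%) or isotype library 6 (6%).

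Across the 10 libraries the enzymes varied together and apart from the factors. The correlation of log2 levels between secreted genes had a median of 0.89 over 325 pairs (range 0.24 to 0.998), with 237 pairs above 0.8. Between factors the median was 0.71 over 6 pairs, and 0.40 without isotype library 10. Between a secreted gene and a factor it was 0.24 over 104 pairs (range -0.55 to 0.71), and 0.20 without isotype library 10. These correlations share their 10 libraries and their depth and are descriptions only. The closest pair was Ctrl with Zg16, at 0.998, and the lowest was Amy2a5 with Bhlha15, at -0.55. With the mean of the secreted genes, Ptf1a had a correlation of 0.21, Rbpjl 0.38, Nr5a2 0.44 and Bhlha15 -0.38. The median secreted gene had 0.94 with the mean of the other 25.

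The proportions among the secreted transcripts were not fixed. Each gene's log2 level was set against the mean of the 26 in the same library. Ctrl relative to that mean was 1.17, 1.37, 1.32, 1.17 and 1.52 in antibody libraries 1 to 5 and 1.0, 1.26, 1.15, 0.066 and 0.18 in isotype libraries 6 to 10. Zg16 relative to it was 0.071, 0.37, 0.31, 0.21 and 0.48 in the antibody libraries and 0.080, 0.43, 0.32, -1.04 and -0.83 in the isotype libraries. Both genes were low against the other enzymes in isotype libraries 9 and 10, by more than 0.8 on the log2 scale below every other library in each gene. Try5 went the other way, at 2.55, 2.14, 2.35, 2.25 and 2.15 in the antibody libraries and 1.97, 1.95, 2.24, 3.19 and 2.90 in the isotype libraries. The widest ranges over the 10 libraries were those of Prss1 (3.19), Amy2a5 (2.64), Prss3 (2.05) and Rnase1 (1.86), the first of which rests on few reads. Try5, Amy2a5 and Prss3 share 53.9%, 57.2% and 66.1% of their windows with other genes. The part of read division among near-copies in their shifts was not tested. The SD of the 26 centred values was 0.550 in isotype library 9 and 0.546 in isotype library 10, and 0.293 to 0.459 in the other libraries.

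**Figure D5:**
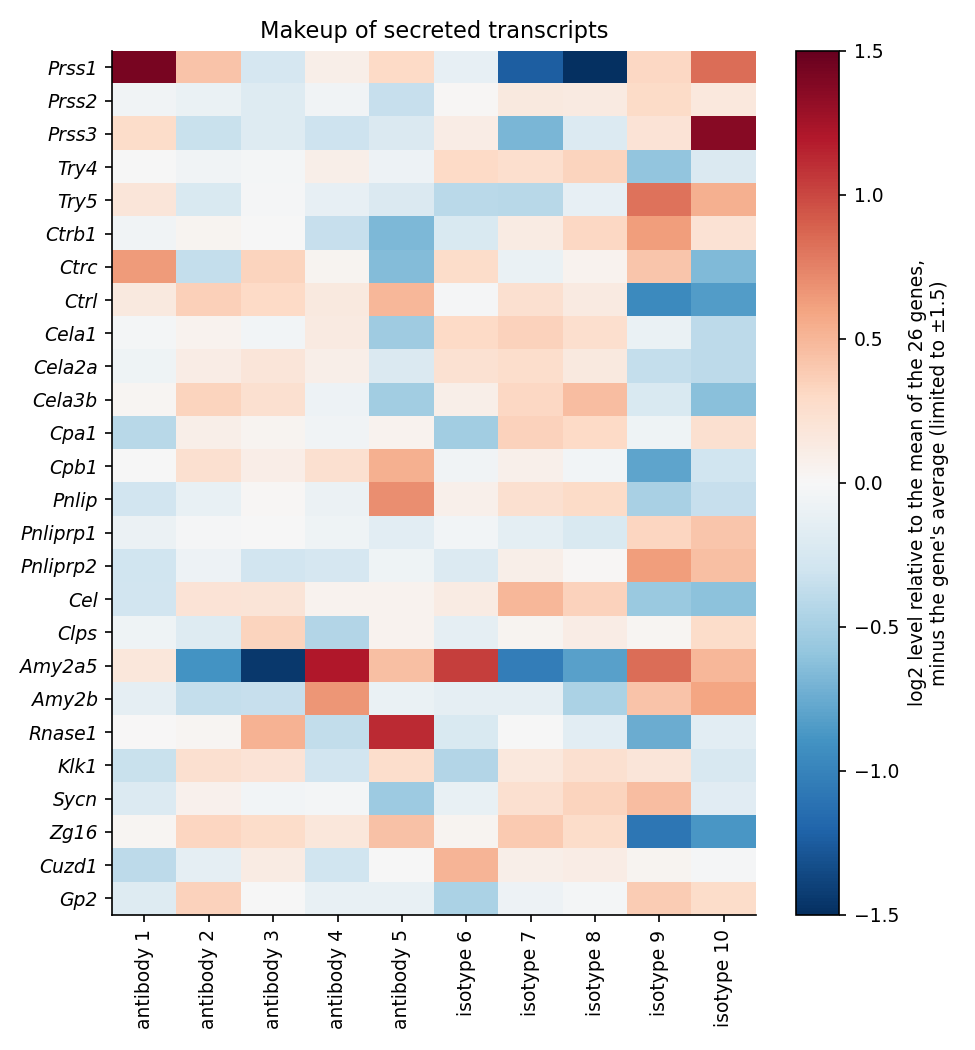
Makeup of the secreted transcripts: for each of the 26 genes (vertical axis) and each library (horizontal axis), the log2 level relative to the mean of the 26, minus the gene's average over libraries (colour). Ctrl and Zg16 are low and Try5 is high in isotype libraries 9 and 10.

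The sequences just before the start sites of the secreted genes were set beside those of the factors. The windows are the 250 bases upstream of each listed start, from RefSeq on GRCm38.p6, written 5′ to 3′ on the gene's strand, and 26 of the 30 members were matched. Capitals mark a match, on either strand, to the TATA box letters TATAAA, to an E-box spelled CAGGTG or to one spelled CAGCTG, to the RBPJ motif TTTCCC, or to CAAGGTCA, a motif bound by Nr5a2. Ctrb1, Cela1 and Cel are shown as enzymes with an E-box and TTTCCC within 30 bases of each other, and Bhlha15 and Ptf1a as the most abundant factor and the factor whose groups did not overlap.
Ctrb1 (chr8:111691011-111691260, minus strand): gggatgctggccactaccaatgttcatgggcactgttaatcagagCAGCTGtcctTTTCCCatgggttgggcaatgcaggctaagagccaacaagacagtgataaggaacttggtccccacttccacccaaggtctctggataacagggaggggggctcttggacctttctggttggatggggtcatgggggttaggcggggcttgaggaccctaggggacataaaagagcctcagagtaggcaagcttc
Cela1 (chr15:100687921-100688170, minus strand): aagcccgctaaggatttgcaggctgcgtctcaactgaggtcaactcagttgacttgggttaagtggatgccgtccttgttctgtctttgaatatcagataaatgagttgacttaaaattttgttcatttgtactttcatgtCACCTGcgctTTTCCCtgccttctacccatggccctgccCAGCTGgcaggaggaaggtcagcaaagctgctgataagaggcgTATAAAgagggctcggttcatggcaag
Cel (chr2:28563404-28563653, minus strand): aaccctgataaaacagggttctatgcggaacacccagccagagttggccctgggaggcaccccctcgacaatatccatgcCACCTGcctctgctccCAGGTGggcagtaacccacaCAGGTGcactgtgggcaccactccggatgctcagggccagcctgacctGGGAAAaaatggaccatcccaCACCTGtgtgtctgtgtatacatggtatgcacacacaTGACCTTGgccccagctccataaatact
Bhlha15 (chr5:144190036-144190285, plus strand): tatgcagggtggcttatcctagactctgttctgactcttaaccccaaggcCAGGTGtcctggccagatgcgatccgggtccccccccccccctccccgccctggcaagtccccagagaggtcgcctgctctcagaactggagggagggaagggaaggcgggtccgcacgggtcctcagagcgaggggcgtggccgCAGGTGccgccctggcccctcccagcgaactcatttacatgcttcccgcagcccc
Ptf1a (chr2:19445413-19445662, plus strand): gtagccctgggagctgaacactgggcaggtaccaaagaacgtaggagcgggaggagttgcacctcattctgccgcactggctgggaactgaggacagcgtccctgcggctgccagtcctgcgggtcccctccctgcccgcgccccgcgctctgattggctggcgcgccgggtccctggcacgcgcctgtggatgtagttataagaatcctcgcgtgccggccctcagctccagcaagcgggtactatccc

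An E-box of either kind was found in 16 of 22 secreted genes (72.7%) and 3 of 4 factors, against 30.6% of 27025 genes. CAGGTG stood in 13 secreted genes (59.1%, against 19.4% of all) and CAGCTG in 6 (27.3%, against 14.7%). TTTCCC stood in 7 (31.8%, against 24.4%), and an E-box with TTTCCC within 30 bases in 4, namely Prss1, Ctrb1, Cela1 and Cel (18.2%, against 1.71%). CAAGGTCA was found in Cel and Klk1 (9.09%, against 1.51%) and TATAAA in 9 secreted genes (40.9%, against 14.3%). The Ptf1a window held none of these letters. Near-copies such as the trypsinogens share promoter sequence, and a match is a description of the letters only.

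Genes outside the 30 were ranked by the correlation of their log2 level with the secreted mean over the 10 libraries. The closest were Amy2a2, Amy2a3 and Amy2a4, amylase copies listed with identical values (0.994). Others among the closest were Pdia2, a pancreatic protein disulfide isomerase (0.966), 2210010C04Rik (0.937), the zinc transporter Slc39a5 (0.921) and Cabp2 (0.911). For the factor mean they were Gdpd1 (0.967), Cckar (0.963), Kcna2 (0.962), Sprr2a1 and Sprr2a2, with identical values (0.961), Reg3g (0.960), Ntn1 (0.958) and BC005537 (0.945). Without isotype library 10 these correlations with the factor mean were 0.869 to 0.922. Cckar, the receptor for cholecystokinin, the hormone that triggers enzyme release, stood at 1.03, 0.702, 0.808, 1.38 and 2.10 RPKM in antibody libraries 1 to 5 and 1.17, 3.47, 3.22, 4.83 and 19.4 RPKM in isotype libraries 6 to 10 (limma log2 fold change -1.56 ± 0.51 SE, adjusted p = 0.448). Its groups overlapped, with isotype library 10 far above the rest.

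No gene passed the test in the further lists of acinar secreted proteins and of secretory machinery. Of 16 further genes of acinar secreted proteins, 0 passed and 4 were lower at an unadjusted limma p under 0.05, beside 4.18% of all genes, with a median log2 fold change of -0.48. Dmbt1, a secreted scavenger receptor protein, was at 10.8 ± 5.39 against 54.6 ± 52.6 RPKM (SD, n = 5 each; limma log2 fold change -2.02 ± 0.45 SE, adjusted p = 0.126). Its groups did not overlap, beside 0.84% of all tested genes with the antibody lower. Isotype library 10 held 148 RPKM, and the isotype mean without it was 31.3 RPKM. The trypsin inhibitor Spink1 was at 32.9 ± 18.7 against 113 ± 89.6 RPKM (SD, n = 5 each; limma log2 fold change -1.68 ± 0.47 SE, adjusted p = 0.310), and the isotype mean without library 10 was 73.7 RPKM. Tff2, a trefoil peptide, had a fold of -1.16 and Try10, a trypsinogen copy, of -1.30. Of 14 genes of secretagogue receptors and secretory machinery 0 passed and 4 were lower at the unadjusted threshold, beside the same 4.18%, with a median of -0.25. Besides Cckar these were the inositol trisphosphate receptors Itpr2 (-0.48, with no overlap) and Itpr3 (-0.28), and Erp27 (-0.93), a protein of the endoplasmic reticulum. Their correlations with the secreted mean were 0.29 for Cckar, 0.61 for Itpr2, -0.21 for Itpr3 and 0.87 for Erp27. This list therefore did not follow the secreted acinar transcripts as a whole.

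The Reg family and markers of duct cells were also set beside the acinar genes. Of 6 Reg family genes, which encode secreted lectins of stressed exocrine tissue, 0 passed and 5 were lower at an unadjusted limma p under 0.05, beside 4.18% of all genes, with a median of -1.50. Reg3b was at 13.1 ± 5.89 against 110.0 ± 126 RPKM (SD, n = 5 each; limma log2 fold change -2.60 ± 0.53 SE, adjusted p = 0.0774) and Reg3g had a fold of -2.04. Both had no overlap, beside 0.84% of all tested genes with the antibody lower. For Reg3b isotype library 10 held 334 RPKM and the isotype mean without it was 54.1 RPKM. Reg3a and Reg1 had folds of -1.66 and -1.35. Of 13 ductal genes 0 passed, 1 was higher and 5 were lower at that threshold, beside 2.84% and 4.18% of all genes, and their median was -0.061. The keratins Krt19 (-1.32), Krt8 (-0.78) and Krt18 (-0.72) had negative folds and Tspan8 a positive one (0.71). The groups did not overlap for Krt18, with the antibody lower, and for Tspan8, with it higher (1.14% of all tested genes). Summed ductal RPKM was 968 to 1744 with the antibody and 1023 to 1756 with the isotype control, while Cftr, the ductal chloride channel, did not exceed 0.247 RPKM. The part of duct or stressed exocrine tissue in the acinar differences was not tested.

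Islet and stromal lists gave the setting. All 9 alpha cell genes had folds above 0, with a median of 1.16, and 6 passed as higher, beside 0.394% of all tested genes. Those passing included Ttr (2.77), Gcg (2.39) and Irx2 (1.16). No gene passed among 12 beta (median -0.44), 4 delta (0.70), 8 endothelial (-0.12), 6 lymphocyte (0.079), 8 macrophage (0.12) and 8 mesenchymal genes (0.14). At an unadjusted limma p under 0.05, 3 beta genes and 1 mesenchymal gene, Pdgfrb, were lower and 4 delta genes higher, beside 4.18% of all genes lower and 2.84% higher. Summed lymphocyte RPKM ran from 7.38 to 63.4 in antibody and 6.53 to 29.5 in isotype libraries and had a correlation of 0.74 with the secreted mean over the 10 libraries, whose part in the acinar values was not tested. RPKM are relative to the whole library, so the larger alpha share enters the acinar values, and its part was not tested.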

How the data were processed

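PolyA RNA of 10 islet libraries was sequenced after Nextera XT preparation, a kit that does not mark strand, per the labels' protocols. The authors deposited RPKM values for 24475 genes. Builds GRCm38 and mm10 and the tools FastQC and CASAVA 1.8.2 stand in the submitters' processing notes, without saying what each was used for. The sources used here do not give the aligner, the counting program or the annotation. Depth was estimated from the steps of low RPKM values in 17505 genes with 1 known transcript length, and 70.4% to 73.7% of low values lay within 0.1 of a whole read. Too few values came out whole for a count model. The 13450 genes averaging 0.5 RPKM or more were fitted in R 4.3.3 with limma 3.58.1 (variance trend, Benjamini-Hochberg over all of them, threshold 0.05) on log2(RPKM + 0.5), a scale that understates folds of low genes. Single genes were also compared by a two-sided exact permutation test (252 assignments). All else ran in Python 3.11.15 (pandas 2.3.3, numpy 2.4.6, matplotlib 3.10.9). Coordinates and promoters are RefSeq's, on GRCm38.p6, and windows shared between transcripts were counted in GENCODE transcripts of the same build.

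Named genes are all 30 members, up to 4 genes of each further list with the smallest p, and the 8 genes most correlated with the secreted and the factor mean, where ties share a place. Some genes that this rule names are not reported here. The members and lists were chosen with earlier results of these data known. The lists cover other acinar secreted proteins, secretagogue receptors and machinery, the Reg family, and ductal, alpha, beta, delta, endothelial, lymphocyte, macrophage and mesenchymal cells. Alternatives were 2 other pseudocounts, 2 other filters, 3 scalings, 3 variance settings, the permutation test per gene, leaving out each library, and leaving out antibody library 5 with isotype library 10. For the secreted share, the trypsinogens and amylases, or the insulin and proglucagon genes, were left out.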

Additional observations from a re-analysis of the deposited data

Results flagged for a closer look

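In groups of 5 libraries, the highest or lowest value was examined for a gap to its neighbour of more than 0.71 of the group's range (Dixon's 95% critical value). For genes the gap and the range were taken on the log2 scale of the limma test, while the values below are printed in RPKM. Over 68 groups (the 30 members and 4 summaries in each of the antibody and isotype groups) 9 such values were found, 13.2%, where chance gives about 1 in 20, and many of these groups share their libraries. Low values stood in isotype library 9 for Prss2 (466 RPKM), Try4 (132 RPKM), Cpb1 (59.6 RPKM), Clps (102.0 RPKM), Rnase1 (20.7 RPKM) and Cuzd1 (1.10 RPKM), and for the mean log2 level of the secreted genes (5.66). High values stood in antibody library 5 for Rnase1 (436 RPKM) and in isotype library 10 for Rbpjl (3.44 RPKM). No factor gene was set apart in isotype library 9 by this measure.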

How the results depend on the processing

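Over 22 alternative settings, 623 of 651 fold changes of single members kept their direction and their side of the threshold, 2 gained a pass (Ptf1a) and 26, in 5 members, turned direction. The number of genes passing was 55, and 23 with a minimum mean of 5 RPKM, 182 with array weights, 0 by exact permutation of each gene, whose smallest p cannot survive adjustment, and 32 to 60 with 1 library left out. The number of members passing was 0, but 1 with array weights and 0 to 1 with 1 library left out (1 without isotype library 6). The log2 fold change of Ctrl was -0.43 with array weights and -0.36 without antibody library 5 and isotype library 10, and -0.53 to 0.35 with 1 library left out. For Rnase1 the same settings gave -0.41, -0.41 and -0.54 to 0.22. Cpb1 was at 0.0039 after median centring and -0.65 to 0.15 with 1 library left out. Zg16 was at 0.062 after median centring, 0.031 after quantile normalization, 0.044 with trimmed mean scaling and -0.66 to 0.30 with 1 library left out, and Prss1 at -0.020 to 0.67. These 5 folds were all smaller than their SE in the reported analysis, and the cause of the turns was not tested. Members under a raised filter, among them Ptf1a, Rbpjl without isotype library 10, and Rbpjl and Prss1 without it and antibody library 5, were not tested.

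The share of secreted transcripts without trypsinogens and amylases differed by -0.471 percentage points, and by -1.43 without Ins1, Ins2 and Gcg in the sum. No paired analysis was possible because the antibody libraries are numbered 1 to 5 and the isotype libraries 6 to 10, so the groups share no number. Depth limits Prss1, Ctrc, Rbpjl and Ptf1a, which rest on a few reads in their lowest libraries. Near-copies limit the trypsinogens and Amy2a5, and no deposited label separates animals from repeat libraries.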
